A study of Mus musculus with 80 samples.

Results

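Muscle stem cells (MuSCs) were measured here for the genes of their molecular chaperones, the heat shock proteins and the DnaJ proteins. The genes were chosen by symbol alone, as every gene named *Hspa*, *Hspb*, *Hspd1*, *Hspe1*, *Hsph1*, *Hsp90*, *Dnaja*, *Dnajb* or *Dnajc* with a number. That rule matched 72 of 25899 genes, and 66 of them were among the 14428 genes detected in the libraries compared. The undetected members were *Dnajb8* and *Dnajc5g*, which had no read in any library, and *Dnajc22*, *Dnajc5b*, *Hspb3* and *Hspb9*, which had at most 5 reads in a library. *Hspb11* carries a small heat shock protein symbol but encodes a subunit of the intraflagellar transport complex.

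Chaperones of the HSP70 family bind unfolded stretches of other proteins and release them with the help of ATP. DnaJ proteins bring them their clients and speed up ATP use, HSP110 proteins exchange the nucleotide, HSP90 proteins take over clients at a later stage, and small heat shock proteins hold unfolded proteins without ATP. Sets of their own serve the endoplasmic reticulum (ER) and the mitochondria, where HSPD1 and HSPE1 form the folding chamber. When unfolded proteins build up in the cytosol, the transcription factor HSF1 binds repeats of the letters GAA and TTC in promoters and raises a subset of these genes. In skeletal muscle, several small heat shock proteins are abundant in myofibres, where they sit at the contractile apparatus.

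MuSCs were sorted by GFP from extraocular muscles (EOM) and the *Tibialis anterior* (TA), a limb muscle, of *Tg:Pax7-nGFP* donor mice on a C57BL/6;DBA2 F1/JRj background, in which a nuclear GFP is driven by the gene of the MuSC transcription factor PAX7. The donors, 10 in all and aged 7 or 7.6 weeks, were used in 2 experiments. EOM and TA cells of a donor were grafted into cardiotoxin-injured TA muscles of a *Rag2-/-;γC-/-* recipient on C57BL/6J, which lacks lymphocytes but keeps its other cells, and GFP-positive cells were sorted again at day 21 by the sample titles, while the study's text also gives a later time. All 4 groups therefore share the transgene, and both graft groups share the injured TA of an immunodeficient host. Muscles were digested at 37 °C, and for transplantation cells went straight to the sort, with freezing and thawing given as the other route. Which libraries were frozen first was not stated per sample. The libraries compared were 8 of EOM and 8 of TA pre-graft MuSCs with 500 cells each, 7 of EOM grafts with a median of 35 cells and 9 at the fewest, and 7 of TA grafts with a median of 26 cells and 16 at the fewest. The number of cells and the stage cannot be told apart, and in these bulk samples fewer cells of a type and less RNA per cell cannot be told apart.

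Reads on genes ranged from 963432 to 4169357 in pre-graft and from 1357233 to 2899135 in graft libraries. Values are relative levels: the log2 of the reads of a gene scaled to library size (RPM) minus the median log2 RPM of the detected genes in the same library. A relative level of 0 is that of the median gene, and a gene without a read stands between -6.42 and -2.47, depending on the library. The share of reads in mitochondrial genes ranged from 2.91 to 8.16% in EOM pre-graft, from 3.22 to 22.9% in TA pre-graft, from 3.85 to 59.6% in EOM graft and from 5.45 to 46.8% in TA graft libraries. The label of MuSC was checked on *Pax7*, whose relative level ranged from 3.36 to 4.50 in EOM pre-graft, from 4.79 to 5.91 in TA pre-graft, from 0.71 to 4.80 in EOM graft and from 1.14 to 4.97 in TA graft libraries. Of 10 MuSC markers, 8 were lower in TA grafts than in TA pre-graft cells and 1 was lower in EOM grafts than in EOM pre-graft cells. Of 7 endothelial markers, 7 and 6 were higher in TA and EOM grafts. So were 4 and 1 of 7 fibro-adipogenic markers and 2 and 2 of 5 pericyte and smooth muscle markers. Of 7 macrophage markers, 1 was higher in TA and 1 in EOM grafts. Over all genes, 7.53% were higher and 4.76% lower in TA grafts, and 11.1% and 4.34% in EOM grafts. A gene was called higher or lower where its adjusted p was under 0.05 and its log2 fold change was beyond 1 in size.

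Promoter sequence is shown first for some of the genes that changed, chosen because each carries a unit of the heat shock element. Other genes that changed, among them *Hspa8*, *Hspa9*, *Hspa12b*, *Hspa2* and *Dnajb9*, were not among the members in which a unit was found. Promoters run from 250 bases before to 50 bases after the transcription start, and come from RefSeq on GRCm38.p6. Each is printed 5′ to 3′ on the strand of its gene, with GAANNTTC and TTCNNGAA, the smallest units of the heat shock element, in capitals. *Hspa1a*, the heat-inducible HSP70, lies at chr17:34972107-34972406 on the minus strand. *Dnajb4*, a cytosolic DnaJ, is shown for the start at chr3:152193796-152194095 on the minus strand, out of 2 listed starts. That start was picked for holding TTCNNGAA. *Hsph1*, an HSP110, is shown for the start at chr5:149636287-149636586 on the minus strand, also out of 2. *Hspe1*, the lid of the mitochondrial folding chamber, lies at chr1:55087898-55088197 on the plus strand.
Hspa1a: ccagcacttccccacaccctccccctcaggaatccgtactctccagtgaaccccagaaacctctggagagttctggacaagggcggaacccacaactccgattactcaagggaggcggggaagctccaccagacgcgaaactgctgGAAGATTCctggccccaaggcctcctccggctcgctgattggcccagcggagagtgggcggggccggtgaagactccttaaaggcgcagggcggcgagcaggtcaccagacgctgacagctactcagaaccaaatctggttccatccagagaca
Dnajb4: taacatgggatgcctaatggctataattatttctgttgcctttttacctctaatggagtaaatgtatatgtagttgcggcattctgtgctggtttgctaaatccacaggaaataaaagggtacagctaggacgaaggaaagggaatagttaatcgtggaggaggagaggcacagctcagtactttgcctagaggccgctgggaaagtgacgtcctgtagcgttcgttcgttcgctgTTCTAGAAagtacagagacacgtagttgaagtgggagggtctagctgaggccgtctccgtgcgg
Hsph1: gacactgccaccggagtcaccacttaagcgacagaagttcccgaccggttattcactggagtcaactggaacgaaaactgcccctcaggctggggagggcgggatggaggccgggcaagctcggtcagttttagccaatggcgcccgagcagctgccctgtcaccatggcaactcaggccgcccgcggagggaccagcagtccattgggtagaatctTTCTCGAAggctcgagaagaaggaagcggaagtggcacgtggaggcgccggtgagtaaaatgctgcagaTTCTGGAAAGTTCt
Hspe1: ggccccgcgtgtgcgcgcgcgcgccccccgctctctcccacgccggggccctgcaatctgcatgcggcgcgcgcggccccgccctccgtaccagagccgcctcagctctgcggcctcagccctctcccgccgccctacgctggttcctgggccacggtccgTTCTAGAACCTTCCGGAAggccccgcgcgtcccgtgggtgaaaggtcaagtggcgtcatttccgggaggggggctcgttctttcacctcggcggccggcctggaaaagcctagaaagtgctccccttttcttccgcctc
The element GAAGATTC of *Hspa1a* began 104 bases before the start, and TTCTAGAA of *Dnajb4* began 14 bases before it. *Hsph1* had TTCTCGAA 33 bases before its start and a run of overlapping units after it. *Hspe1* had TTCTAGAA, GAACCTTC and TTCCGGAA at 89, 84 and 79 bases before its start, which overlap in a single run. Its window shares 285 bases with that of *Hspd1*, which is read from the other strand.

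The units were not restricted to these genes. A promoter was listed for 54 of the 66 detected members. GAANNTTC, searched on both strands, was found in 12 of the 54 (22.2%), against 9.04% of 27025 genes and 7.86% of all 32851 promoters of this length. TTCNNGAA, a search added after the sequences were seen, was found in 6 (11.1%), against 9.60% of genes and 8.52% of promoters. The longer run of GAANNTTC followed directly by NNGAA, which contains both shorter units, was found in *Dnajb6*, *Hspd1*, *Hspe1* and *Hsph1* (7.41%), against 0.662% of genes and 0.603% of promoters. The ER stress element, CCAAT and CCACG with 9 bases between them, was found in *Dnajc3*, *Hsp90b1* and *Hspa5* (5.56%), against 0.137% of genes and 0.119% of promoters. All 3 encode chaperones of the ER lumen. A match is a description of the letters and not of a bound site.

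Set against the length of their exons, the members spanned a wide range. Mean RPM per kilobase of exon in EOM pre-graft cells was 1350.4 for *Hsp90ab1*, a constitutive HSP90, 833 for *Hspa8*, the constitutive HSP70, 772 for *Hsp90aa1*, the inducible HSP90, and 645 for *Hspa5*, the HSP70 of the ER. *Hspb1*, a small heat shock protein, followed with 521. In TA pre-graft cells the same 5 genes came first in the same order, with 1259.7, 986, 661, 597 and 401 RPM per kilobase. At the other end, 7 members lay under 1 RPM per kilobase in EOM pre-graft cells. A read was present in every library for 39 of the 66 detected members, and 7 had reads in fewer than 15 of the 30 libraries.

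Pre-graft MuSCs of TA and EOM were compared to ask how far cells of a limb and a cranial muscle differ before transplantation. *Hspa1a* was the only member called higher in TA, and no member was called lower. Across all genes 1.7% were called higher and 1.82% lower. At an adjusted p under 0.05 and any size, 4 of 66 members passed, all higher in TA, against 5.21% of all genes in either direction, 2.61% of them higher. The members were *Hspa1a*, *Dnajb4*, *Hsph1* and *Dnajc13*, the last named after its values were seen. The median log2 fold change was 0.07 over the members and -0.01 over all genes, and an unadjusted p under 0.05 was reached by 17 members and by 18.8% of all genes. Leaving out the TA library of mouse 3 of Experiment 1, or of mouse 1 or 2 of Experiment 2, brought the members called from 1 to 2, and leaving out that of mouse 3 of Experiment 2 brought them to 3.

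The relative level of *Hspa1a* was 1.29 at the lowest, 2.22 at the median and 2.77 at the highest in EOM, and 3.11, 3.42 and 4.37 in TA. Every TA library lay above every EOM library. *Hspa1a* and *Dnajb4* were the members whose groups did not overlap, against 1.74% of all genes. *Hspa1a* was 2.42-fold higher in TA, a log2 fold change of 1.27 (SE 0.21, 95% interval 0.84 to 1.71, limma, adjusted p = 0.000344). It was higher in TA in 7 of 7 donors, by 0.89 to 1.86, and the difference was 1.05 within Experiment 1 and 1.32 within Experiment 2. These levels rested on at least 116 reads in each EOM and 215 in each TA library. In a fit over all 4 groups, which shares the wider spread of the grafts, the adjusted p was 0.108.

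*Hspa1b*, the neighbouring copy that encodes nearly the same protein, was lower throughout. Its relative level was -1.87, -0.65 and 0.04 at the lowest, median and highest EOM library, and -2.29, 0.40 and 0.94 in TA. The groups overlapped, and the log2 fold change was 0.74 (SE 0.47, adjusted p = 0.417). Of the windows of 75 bases in the *Hspa1a* transcript 52.7% also occur in *Hspa1b*, so reads could be split between the copies by the counting, and both levels are uncertain. The promoter windows of the pair differed at 4 of 300 bases. With the reads of both summed, the log2 fold change was 1.22 (adjusted p = 0.000484). *Hspa1a* took between 60.4 and 98% of the reads of the pair. Over the 30 libraries the genes most like *Hspa1b* in relative level were *Acaca*, *Mex3c* and *Tspan12* (Pearson r 0.70, 0.68 and 0.68), and among the members *Dnaja1* (0.66) and *Hspa1a* (0.52) came first, as a description over libraries that differ in depth and group.

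*Dnajb4* ranged from 2.06 over a median of 2.65 to 2.82 in EOM and from 2.90 over 3.38 to 3.99 in TA, without overlap. It was higher in TA by 0.81 on the log2 scale (SE 0.16, adjusted p = 0.00315), in 7 of 7 donors, but not past the threshold in the fit over all 4 groups (adjusted p = 0.317) or with the libraries below the study's quality list added (adjusted p = 0.0507). *Hsph1* ranged from 1.99 over 2.65 to 2.96 in EOM and from 2.82 over 3.23 to 3.47 in TA. Its groups overlapped at their edges, while the TA library was the higher in 7 of 7 donors. The log2 fold change of *Hsph1* was 0.67 (SE 0.16, adjusted p = 0.0104), and it no longer passed on the deposited scale without centring, with 0.42 (adjusted p = 0.14), nor in the fit over all 4 groups (adjusted p = 0.229). *Dnajc13*, which encodes a DnaJ protein of endosomes, ranged from 0.95 to 1.52 in EOM and from 1.30 to 2.16 in TA. Its log2 fold change of 0.56 (adjusted p = 0.0475) lost the threshold when any of 11 of the 16 libraries was left out.

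**Figure D1:**
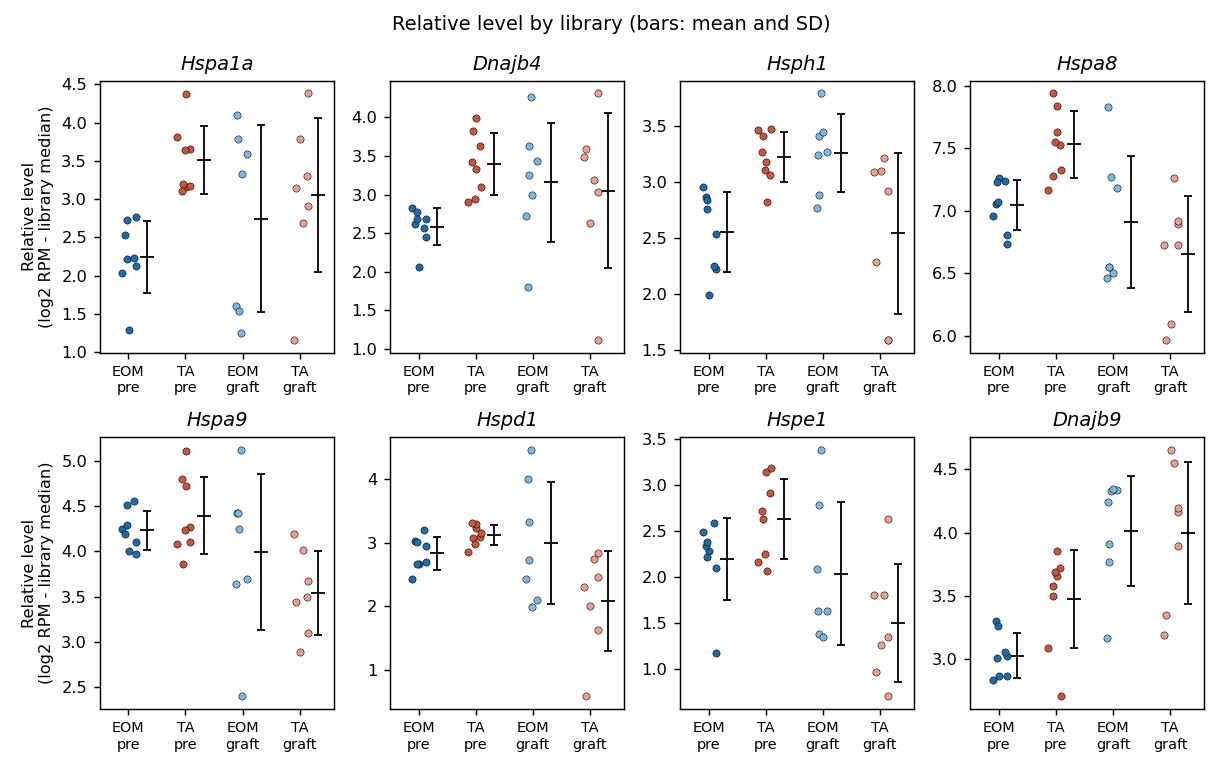
Relative level (log2 RPM minus the library median, y axis) of 8 chaperone genes in each library, with 8, 8, 7 and 7 points for EOM pre-graft, TA pre-graft, EOM graft and TA graft, and bars for the mean and SD. *Hspa1a* and *Dnajb4* lie higher in every TA than in every EOM pre-graft library, and *Hspd1* lies lower in every TA graft than in every TA pre-graft library.

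*Hspa8*, the partner of most cytosolic DnaJ proteins, ranged from 6.73 over 7.06 to 7.26 in EOM and from 7.17 over 7.54 to 7.94 in TA. The log2 fold change was 0.49 (SE 0.15, adjusted p = 0.0539). With the donor as a block the value was 0.45 with an adjusted p of 0.0234, and *Hspa8* was higher in TA in 7 of 7 donors. *Hspa13*, an HSP70-like protein of the ER membrane system, went the other way, with 3.00, 3.56 and 4.11 in EOM and 2.24, 2.92 and 3.65 in TA. Its log2 fold change was -0.63 (adjusted p = 0.0539), or -0.61 with the block (adjusted p = 0.014), and it was lower in TA in 7 of 7 donors. The block brought in *Dnajc3*, an ER DnaJ, at -0.45 (adjusted p = 0.018), and *Hspb2*, a muscle small heat shock protein, at 1.99 (adjusted p = 0.0357). *Hspb2* had 1 to 33 reads in EOM pre-graft libraries. The library with 1 read, that of mouse 4 of Experiment 1, stood at -5.32, and the next lowest at -1.76. *Dnajc13* missed the threshold with the block (adjusted p = 0.0754).

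A list of 11 genes, named heat-inducible here, was drawn up around *Hspa1a*, *Hsph1*, *Dnaja1* and *Dnajb1* with earlier results of these data known. It also holds the constitutive *Hspa8* and the mitochondrial *Hspd1* and *Hspe1*. Of the 11, 3 passed an adjusted p of 0.05, where 5.21% of all genes did. In this list 10 lay above 0, with a median log2 fold change of 0.44. Without centring 8 of the 11 lay above 0 and the median was 0.19. Of the 9 ER members, none passed the adjusted threshold in limma or edgeR while 3 did in DESeq2 (*Dnajb9*, *Dnajc3* and *Hspa13*), 5 reached an unadjusted p under 0.05 in limma, where 18.8% of all genes did, and 5 lay above 0. *Hspa5* was at 6.71 in the median EOM and at 6.72 in the median TA library, with a log2 fold change of 0.13 (95% interval -0.17 to 0.42). Of the 10 mitochondrial members tested, none passed in limma, edgeR or DESeq2, 2 reached an unadjusted p under 0.05, against the same 18.8%, and 8 lay above 0. *Hsp90aa1* was at medians of 6.77 and 6.83 (log2 fold change 0.01, 95% interval -0.31 to 0.33). The intervals of *Hspa5* and *Hsp90aa1* leave out changes as large as that of *Hspa1a*.

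**Figure D2:**
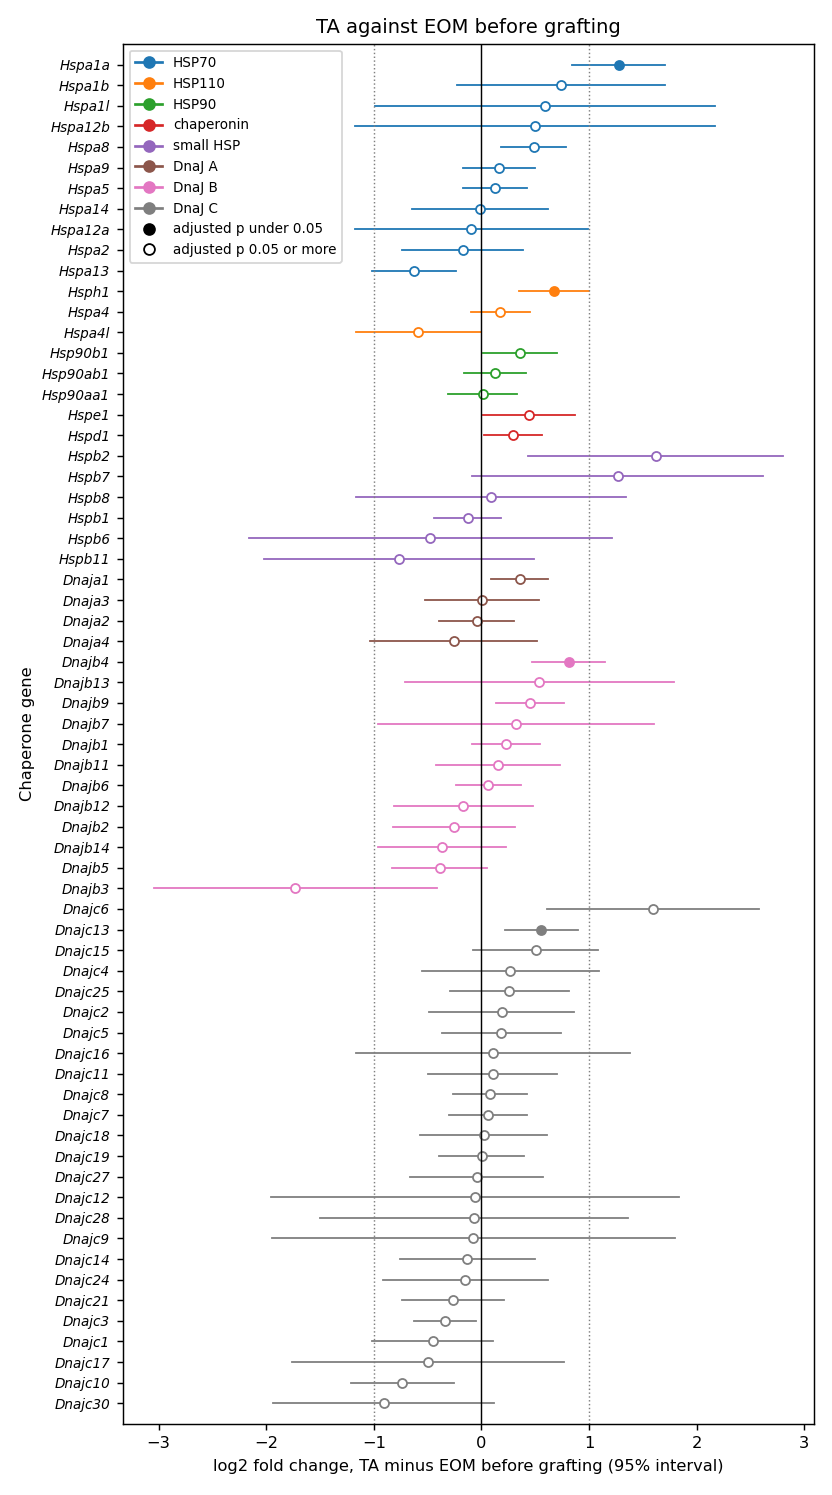
Log2 fold change of TA over EOM pre-graft MuSCs (x axis, with 95% interval) for the 66 detected chaperone genes (y axis), coloured by family, with filled points for an adjusted p under 0.05. The 4 filled points are *Hspa1a* at 1.27, *Dnajb4* at 0.81, *Hsph1* at 0.67 and *Dnajc13* at 0.56, and the dotted lines mark 1 and -1.

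Genes around the chaperones were counted from fixed lists. None of 4 heat shock factor genes tested passed (limma; 0 at an unadjusted p under 0.05). Of 35 cochaperones and nucleotide exchange factors, 2 were called higher in TA: *Fkbp5*, an HSP90 cochaperone and a known glucocorticoid target, by 1.60 (adjusted p = 0.00347), and *Unc45b*, the myosin chaperone of muscle, by 3.26 (adjusted p = 0.013). Of 9 myofibre markers tested, 2 were called higher in TA with a median log2 fold change of 1.72, and their summed relative level was 1.33 to 2.50 in EOM and 2.66 to 4.35 in TA, without overlap. Of 7 endothelial markers 1 was called higher and 1 lower, with a median of 3.49, and of 7 fibro-adipogenic markers 2 were called lower. The part of these markers in the levels of *Unc45b* and *Hspb2* was not tested. Of 13 genes of the TRiC chamber and its partner prefoldin, none passed (1 at an unadjusted p under 0.05). Of 20 genes of the unfolded protein response of the ER, 1 passed, *Ppp1r15a*, at 0.91. The early response list, which holds *Fos*, *Jun* and other genes that respond within minutes to many stimuli, had 23 of 23 tested genes above 0 with a median of 0.56, 11 with an adjusted p under 0.05 and 4 called higher. Those 4 were *Nr4a1* (1.60), *Fos* (1.25), *Ier2* (1.13) and *Jun* (1.07). They moved in the same comparison as *Hspa1a*, and their part in its difference was not tested.

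TA grafts were compared with TA pre-graft MuSCs to ask what changes when limb cells are moved to the same muscle of another animal. The mitochondrial *Hspd1*, *Hspe1* and *Hspa9* and the cytosolic *Hspa8* fell, while *Hspa12b*, *Hspa2* and *Dnaja4* rose. Of the members 3 were called higher and 2 lower, against 7.53% and 4.76% of all genes. At an adjusted p under 0.05 and any size 7 of 66 passed, against 13.4% of all genes, 3 of them higher against 8.13% and 4 lower against 5.27%. An unadjusted p under 0.05 was reached by 20 members and by 29.2% of all genes. The median log2 fold change was -0.16 over the members and -0.06 over all genes. Without centring the median of all genes was -0.98 here and -1.36 in EOM grafts, and -0.26 in TA against EOM pre-graft cells, and the changes given are relative to the median gene. On that scale 0 members were called higher and 26 lower in TA grafts, and the calls of *Hspa12b* (2.04, adjusted p = 0.0626), *Hspa2* (0.28, adjusted p = 0.632) and *Dnaja4* (0.50, adjusted p = 0.475) were lost.

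*Hspd1*, the barrel of the mitochondrial folding chamber, was at 2.85, 3.12 and 3.31 in the lowest, median and highest TA pre-graft library and at 0.58, 2.31 and 2.84 in TA grafts. It was the only member without overlap between these groups, against 2.88% of all genes, with a narrow gap between 2.84 and 2.85. It fell by 1.04 on the log2 scale (SE 0.29, adjusted p = 0.0206). All 7 of 7 donors had a negative difference, from -2.57 to -0.0055, the last of which is next to no change. The difference was -0.33 within Experiment 1, which had 1 graft library, and -1.17 within Experiment 2. *Hspe1*, its lid, was at 2.07, 2.67 and 3.19 and then at 0.70, 1.35 and 2.63, with overlapping groups. It fell by 1.13 (SE 0.30, adjusted p = 0.017), in 6 of 7 donors. With the donor as a block the adjusted p was 0.0565 for *Hspd1* and 0.0559 for *Hspe1*.

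*Hspa9*, the HSP70 of the mitochondrial matrix, was at 3.86, 4.26 and 5.11 before and at 2.89, 3.50 and 4.19 after grafting. The groups overlapped, and the gene fell by 0.85 (adjusted p = 0.0203, 0.0416 with the block), in 7 of 7 donors, with differences from -2.22 to -0.08. Within Experiment 1, with 1 graft library, the difference was 0.04. These 3 were the members of the mitochondrial list that passed, out of 10 tested, where 5.27% of all genes passed as lower. That list too was drawn up with earlier results of these data known. Of the 10, 8 lay below 0, with a median of -0.90 against -0.06 over all genes. *Hspd1* and *Hspe1*, which correlated over the libraries (Pearson r 0.65), are also counted in the heat-inducible list. *Dnaja3*, the DnaJ partner of *Hspa9*, had a log2 fold change of -0.83 (adjusted p = 0.271).

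*Hspa8* was at 7.17, 7.54 and 7.94 before and at 5.96, 6.73 and 7.26 after grafting. The highest graft lay within the pre-graft range and the others lay below it. It fell by 0.88 (SE 0.20, adjusted p = 0.00591), in 7 of 7 donors, and passed under all 15 other settings tried. The difference was -0.14 within Experiment 1 and -1.02 within Experiment 2. *Hspa5*, the HSP70 of the ER, had a log2 fold change of -0.53 (adjusted p = 0.0734), and *Hsp90ab1* of -0.45 (adjusted p = 0.0703). *Hspa1a* was at 3.11, 3.42 and 4.37 before and at 1.16, 3.15 and 4.38 after grafting, and its log2 fold change of -0.46 had an interval of -1.19 to 0.26.

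Markers moved with these changes. The summed relative level of 10 MuSC markers ranged from 9.39 to 10.1 in TA pre-graft and from 6.22 to 9.36 in TA graft libraries. Of 9 myofibre markers tested, 4 were called higher and 1 lower in TA grafts, with a median log2 fold change of 2.59. Their summed relative level was 2.66 to 4.35 before and 3.47 to 7.90 after grafting. In the early response list 8 of 23 genes were called lower and 1 higher in TA grafts, among them *Fos* at -1.59 and *Jun* at -1.33. Of the cochaperones, *Ahsa1*, which speeds up HSP90, *Fkbp4* and *Hyou1*, an HSP110 of the ER, were called lower, at -1.93, -1.23 and -1.66, and *Unc45b* was called higher, at 1.80. Of the unfolded protein response genes *Herpud1* was called lower, at -1.57 (adjusted p = 0.000898). The part of the markers in the change of the chaperones was not tested.

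*Hspa12b*, an atypical HSP70 known from endothelial cells, ranged from -5.32 over -1.56 to 1.29 in TA pre-graft and from -0.87 over 1.54 to 2.89 in TA graft libraries. The groups overlapped, with 0 to 120 reads before and 12 to 148 after grafting. It rose by 2.96 (SE 0.84, adjusted p = 0.0223), in 7 of 7 donors. The call was lost in edgeR (adjusted p = 0.117) and when the TA graft of mouse 3 of Experiment 2 was left out, where the value was 2.76 (adjusted p = 0.051). The summed level of 7 endothelial markers ranged from -0.26 to 6.45 in TA pre-graft and from 6.15 to 8.80 in TA graft libraries. The 3 TA pre-graft libraries at 5.64 to 6.45 on that sum, mice 1, 2 and 6 of Experiment 2, were at 0.12 to 1.29 for *Hspa12b*. In EOM grafts, with 2.96 to 8.89 on the sum, *Hspa12b* ranged from -4.40 to 2.83, against -3.46 to -0.44 in EOM pre-graft cells (log2 fold change 1.89, adjusted p = 0.195). Some libraries were high on the sum and low for *Hspa12b*, all of Experiment 2. The EOM graft of mouse 1 was at 7.92 and -1.07, and that of mouse 2 at 5.98 with no read. The TA graft of mouse 5 was at 6.15 and -0.87. The part of the endothelial markers in the level of *Hspa12b* was not tested.

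**Figure D3:**
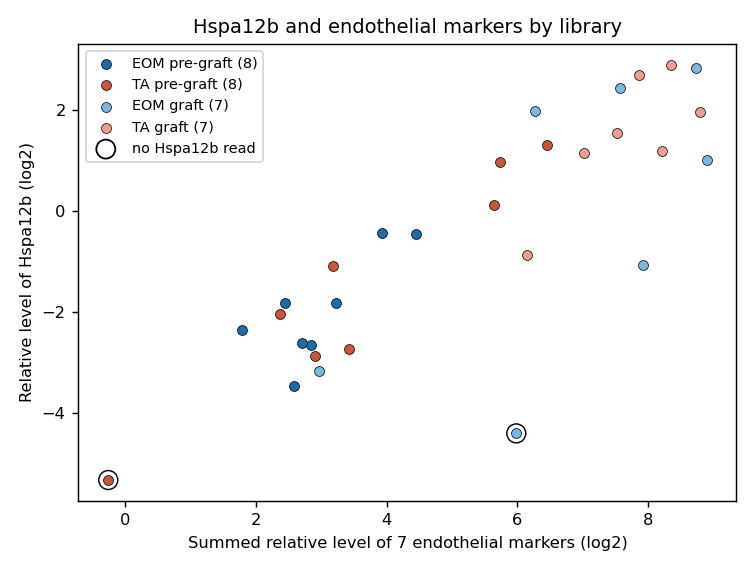
Relative level of *Hspa12b* (y axis, log2) against the summed relative level of 7 endothelial markers (x axis, log2), 1 point per library in 4 groups, with a ring where *Hspa12b* had no read. The 7 TA grafts lie between 6.15 and 8.80 on the x axis, and 3 TA pre-graft libraries lie between 5.64 and 6.45, apart from the rest of their group.

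*Hspa2*, an HSP70 best known from the testis, was at 0.22, 0.85 and 1.88 before and at 1.21, 2.02 and 3.09 after grafting of TA cells. It rose by 1.20 (adjusted p = 0.0279, 0.0582 with the block), in 6 of 7 donors, and the difference within Experiment 1 was -0.08. The call was lost without the TA graft of mouse 3 or of mouse 6, or without the TA pre-graft library of mouse 2 or of mouse 4, all of Experiment 2, with 1.05 to 1.16 as values. *Dnaja4*, a cytosolic DnaJ, was at -1.36, 0.36 and 1.32 before and at 0.71, 1.56 and 2.64 after. It rose by 1.42 (SE 0.46, adjusted p = 0.0422, 0.0791 with the block), in 7 of 7 donors, and lost the threshold when any of 10 of the 15 libraries was left out. Leaving out the TA graft of mouse 3 or of mouse 6 of Experiment 2 brought the members called in TA grafts from 5 to 3 and to 2, and leaving out the TA pre-graft library of mouse 4 of that experiment brought them to 3.

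EOM grafts were compared with EOM pre-graft MuSCs to ask what changes when cranial cells are placed in a limb muscle. *Dnajb9*, *Dnajb6*, *Hspb1* and *Hsph1* rose relative to the median gene but had negative changes on the deposited scale without centring, where 1 member was called higher and 38 lower, and *Dnajb2* fell. Of the members 2 were called higher and 1 lower, against 11.1% and 4.34% of all genes. At an adjusted p under 0.05 and any size 7 passed, 6 of them higher, against 16.6% of all genes, of which 11.9% higher and 4.78% lower. The groups of no member were free of overlap, against 2.63% of all genes, and 15 members reached an unadjusted p under 0.05, against 30.5%. The median log2 fold change was 0.07 over the members and -0.03 over all genes. No member passed with the donor as a block, where 13 had an unadjusted p under 0.05. Without the EOM graft of mouse 4 of Experiment 1, or of mouse 1 or 5 of Experiment 2, 8, 6 or 5 members were called, and 1 was called without the EOM graft of mouse 3 of Experiment 2 or without the EOM pre-graft library of mouse 3 of Experiment 1 or of mouse 1 or 6 of Experiment 2.

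*Dnajb9*, an ER DnaJ that rises in the unfolded protein response, was at 2.84, 3.01 and 3.30 in the lowest, median and highest EOM pre-graft library and at 3.17, 4.24 and 4.34 in EOM grafts. All grafts but the lowest lay above the pre-graft range. It rose by 0.99 (SE 0.21, adjusted p = 0.00369, 0.059 with the block), in 6 of 6 donors, and was at -0.34 on the deposited scale without centring. *Dnajb6*, which holds back protein aggregation and whose human counterpart is mutated in a limb-girdle muscular dystrophy, was at 1.70, 1.95 and 2.30 before and at 2.22, 2.73 and 3.77 after. It rose by 0.91 (SE 0.26, adjusted p = 0.021, 0.17 with the block), in 6 of 6 donors, and was at -0.42 without centring.

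*Hsph1* was at 1.99, 2.65 and 2.96 in EOM pre-graft cells and at 2.77, 3.27 and 3.80 in EOM grafts. It rose by 0.71 (SE 0.23, adjusted p = 0.0376, 0.102 with the block), in 6 of 6 donors, and was at -0.62 without centring. *Dnajb2*, a DnaJ that hands clients to the proteasome, was at 0.06, 0.55 and 0.80 before and at -3.46, -1.65 and 0.49 after. It fell by 1.88 (SE 0.58, adjusted p = 0.0302), in 6 of 6 donors, with differences from -3.52 to -0.05. It had 55 to 119 reads before and 1 to 52 after grafting, and its groups overlapped. *Hsph1* and *Dnajb2* lost the adjusted p threshold when any of 6 and of 7 of the 15 libraries was left out, and *Dnajb2* also lost it with the block.

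The small heat shock proteins of muscle were above 0 in 5 of 5 tested genes in EOM grafts, with a median of 1.14. Without centring 1 of the 5 lay above 0 and the median was -0.19. The rise was not particular to EOM grafts: in TA grafts 4 of the 5 lay above 0, with a median of 0.71. Without centring 2 of the 5 did in TA grafts, with a median of -0.21. *Hspb1* was at 3.60, 4.39 and 4.68 in EOM pre-graft cells and at 3.99, 5.38 and 5.72 in EOM grafts. It rose by 0.80 (SE 0.25, adjusted p = 0.0294, 0.0585 with the block), in 6 of 6 donors, and was at -0.52 without centring. *Hspb1* lost the adjusted p threshold when any of 5 of the 15 libraries was left out. In TA grafts its log2 fold change was 0.71 (adjusted p = 0.0541). *Hspb7*, a small heat shock protein of striated muscle, was called higher with a fitted log2 fold change of 2.36 (adjusted p = 0.0404). It had reads in 2 of 8 EOM pre-graft libraries, at most 8, and in 2 of 7 EOM grafts, at most 11, and the call was lost when any of 11 of the 15 libraries was left out. The level of a gene without a read was itself higher in EOM grafts, at a median of -4.40 against -6.01 before grafting, and with all libraries raised to 1 common floor the value was 0.59 (adjusted p = 0.326).

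*Hspb8*, which works with BAG3 in muscle, was at -2.90, -0.93 and 1.42 in EOM pre-graft cells and at -4.39, 1.56 and 2.59 in EOM grafts. *Hspb6* was at -6.42, -2.60 and -0.90 and then at -5.64, -1.0 and 0.77. Neither passed, and the groups of both overlapped. Of 9 myofibre markers tested, 7 were called higher in EOM grafts, with a summed relative level of 1.33 to 2.50 before and 2.73 to 8.18 after, and their part in the level of the small heat shock proteins was not tested.

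**Figure D4:**
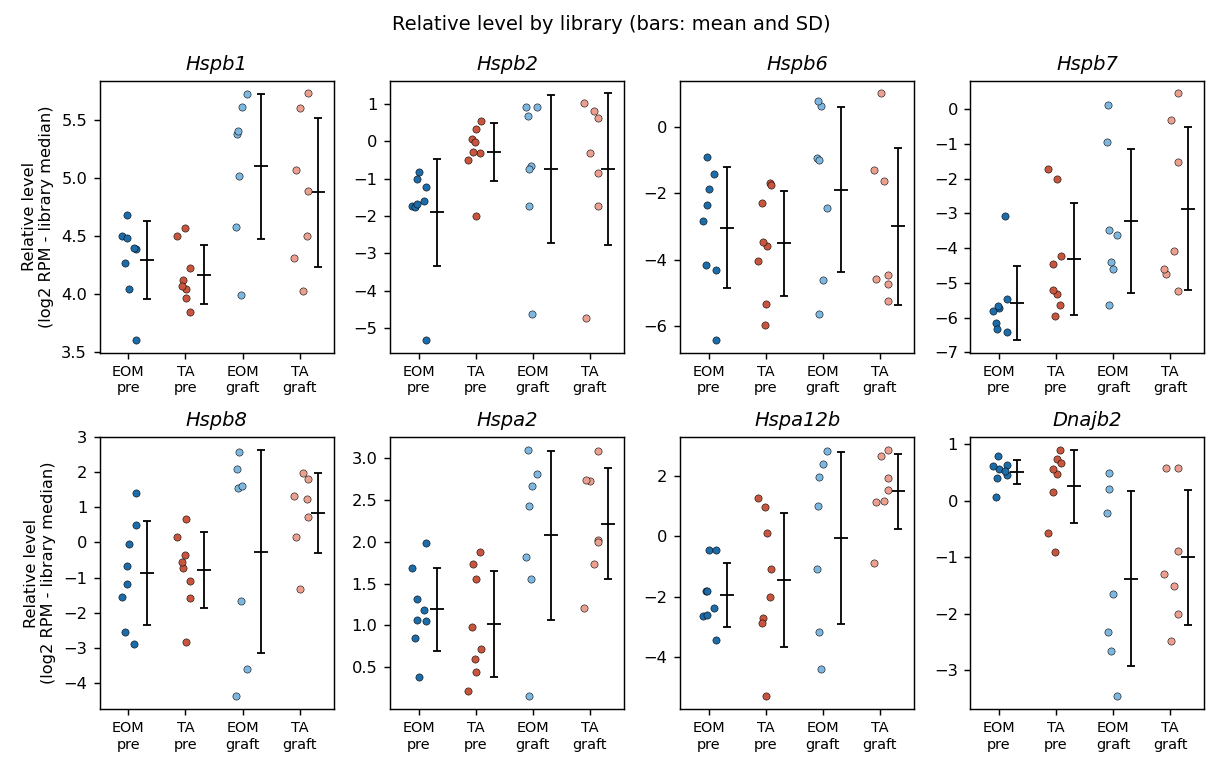
Relative level (log2 RPM minus the library median, y axis) of the muscle small heat shock proteins and of *Hspa2*, *Hspa12b* and *Dnajb2* in each library, with bars for the mean and SD. *Hspb1* reaches 5.72 in EOM grafts against 4.68 in EOM pre-graft cells, and the low points of *Hspb6* and *Hspb7* are libraries with few or no reads.

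*Dnajc6*, which encodes auxilin, a DnaJ protein of clathrin uncoating in neurons, was called higher in EOM grafts. It had no read in any of the 8 EOM pre-graft libraries and reads in 3 of 7 EOM grafts, at most 13. Its mean of 1.92 RPM was 1.95 times the 0.981 RPM that 3 reads in each pre-graft library would give. That bound on the pre-graft level covers counting error only. With the common floor the log2 fold change was 0.45 and the call was lost (adjusted p = 0.446).

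Around the members, *Serpinh1*, the collagen chaperone of the ER, was called higher in EOM grafts by 1.51 (adjusted p = 0.000139), and *Ttc4*, an HSP90 cochaperone, lower at -2.32. No heat shock factor, TRiC or unfolded protein response gene was called in EOM grafts by limma, while 1, 2 and 2 of them had an unadjusted p under 0.05. Of 23 early response genes tested 5 were called higher and 1 lower, against 11.1% and 4.34% of all genes. Those higher were *Ier3* (1.86), *Klf6* (1.45), *Ier2* (1.19), *Ier5* (1.16) and *Egr3* (1.87), the last with at most 10 reads in an EOM graft. The lower gene was *Egr2* at -2.46 (adjusted p = 0.00157).

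The graft change was compared between the muscles, as the change of EOM minus that of TA. The 2 changes share no library. The contrast equals the pre-graft difference of TA over EOM minus that between the grafts, so it adds no independent comparison. For *Hsph1* the pre-graft difference was 0.67. No member was called in limma, edgeR or DESeq2, against 0.097% of all genes higher and 0.0693% lower in limma, and 6 members had an unadjusted p under 0.05, against 7.89% of all genes. In edgeR and DESeq2 6 and 7 members had one. The smallest p was that of *Hsph1*, which changed by 0.71 in EOM and by -0.68 in TA. The difference was 1.39 (95% interval 0.67 to 2.11, p = 0.000376, limma adjusted p = 0.0952), and over the alternatives the adjusted p ranged from 0.0646 to 0.692. It was 1.21 for *Hspd1* (adjusted p = 0.433), 0.97 for *Hspe1* (adjusted p = 0.582) and 0.74 for *Hspa8* (adjusted p = 0.447). Of the 11 genes of the heat-inducible list, 11 lay above 0 with a median of 0.74. Without centring 8 did, with a median of 0.33. Over all genes the median was 0.10. In the pre-graft comparison, which is part of this contrast, 10 of the 11 had already lain above 0, with a median of 0.44.

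**Figure D5:**
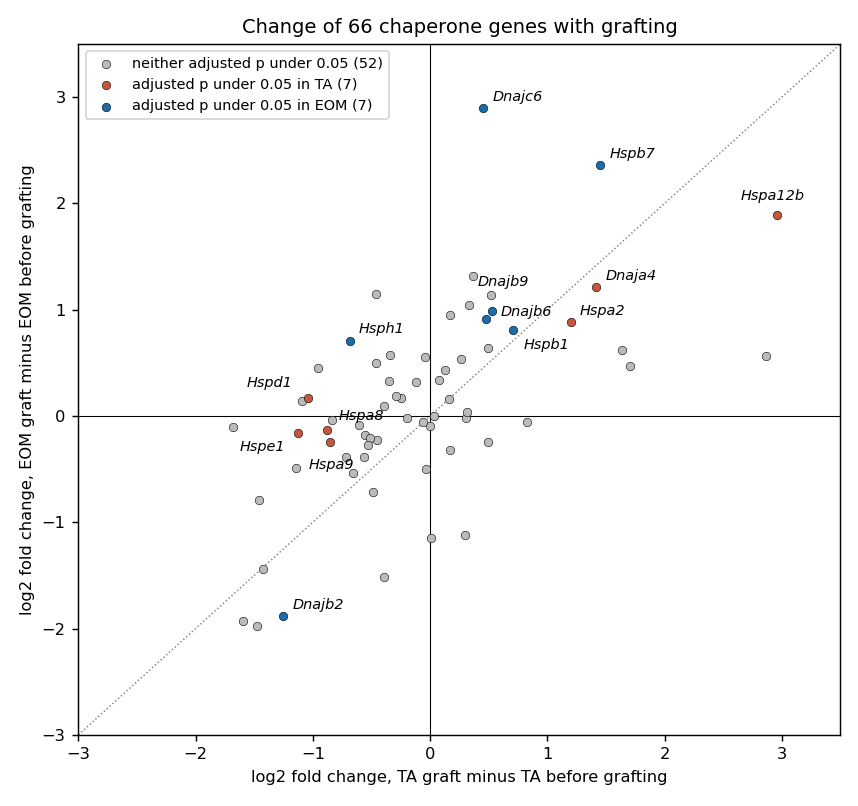
Log2 fold change with grafting of the 66 detected chaperone genes in TA (x axis) and EOM (y axis), with colours for an adjusted p under 0.05 in either muscle and a dotted line where the 2 changes are equal. *Hspd1* lies at -1.04 in TA and 0.17 in EOM, and *Hspa8* at -0.88 and -0.14.

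In the host TA the grafts of both origins were then compared with each other. No member was called by limma, edgeR or DESeq2, as was 0% of all genes in limma, and no alternative setting changed that count. An unadjusted p under 0.05 was reached by 3 members in limma, against 4.43% of all genes, and by 4 in edgeR and in DESeq2. The groups of every member overlapped, as did those of all but 0.0277% of all genes. Those of limma were *Hspa13* at -1.27 (adjusted p = 0.962), *Dnajc3* at -0.71 and *Dnajc12*, which was singled out after its values were seen, at 2.24. For *Hspa1a*, which was 1.27 higher in TA before grafting, the difference of TA over EOM grafts was 0.31, with an interval of -0.77 to 1.39. That interval includes 0 and also the pre-graft difference. Its relative level was 1.24, 3.33 and 4.10 in EOM grafts and 1.16, 3.15 and 4.38 in TA grafts, and the spread within each graft group was larger than before grafting (SD 1.22 and 1.01 against 0.47 and 0.44). For *Dnajb4* the difference was -0.10 (95% interval -1.02 to 0.81) and for *Hspd1* -0.92 (-1.86 to 0.02).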

How the data were processed

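RNA libraries were made by the G&T method and sequenced as 75 bp paired-end reads. Per the labels the submitters' processing notes name Trim Galore 0.4.4, HISAT2 2.1.0 and GRCm38, and the study's methods name SeqMonk for the correction for library size and the log2. The annotation release, the counter and its use of strand are not given in the sources used here. Per the file headers, the gene table is on the log2 RPM scale, with 1 of 40 columns for each library. The library tables deposited by the authors hold read counts and the percent of reads in genes, exons and mitochondrial genes.

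Samples were grouped by their labels. Of 40 RNA libraries, 30 that pass the study's quality list were compared and 10 were left out. The 40 bisulfite libraries were not analysed here. A gene without a read was deposited at the library's minimum, which equals 0.9 of a read. Reads recovered from that step were whole within 0.05 for 99.9971% of values. The row with most reads was kept per symbol, leaving 25899 of 25965 rows. Genes that exceeded a log2 RPM of 1 in 4 or more of these libraries counted as detected. Each library was centred on its median detected gene. No pseudocount was added.

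Differences were tested in limma 3.58.1 (R 4.3.3) with a trend, 2 groups per fit and 4 for the difference of changes, two-sided, adjusted by Benjamini and Hochberg over 14428 genes. Recovered reads were also tested in edgeR 4.0.16 and DESeq2 1.42.0. EOM and TA cells of a donor come from the same animal, so the donor was fitted as a block as an alternative. Deviations of libraries of a donor correlated at -0.22 to 0.18. Scripts were tested on simulated data. The chaperone genes, the pathway and marker lists and the rule for named genes (all members called, and a fixed core of well-known members) were chosen with earlier results of these data known. Libraries within a group come from separate donors, while EOM and TA libraries share donors, as do pre-graft and graft libraries. By the study's text, EOM and TA cells of a donor went into opposite TA muscles of the same recipient. The EOM and TA grafts of a donor thus also share a host.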

Additional observations from a re-analysis of the deposited data

Results flagged for a closer look

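Within groups of 7 or 8 libraries, 13 of the relative levels of named genes stood apart from their group by Dixon's criterion, among 136 groups of values from 34 genes examined, where chance gives about 1 in 20 groups. In TA pre-graft cells the library of mouse 3 of Experiment 2 stood highest for 4 ER chaperones, *Hspa5* at 7.45, *Hsp90b1* at 5.97, *Dnajc3* at 5.36 and *Dnajb11* at 2.47, and lowest for *Hspb2* at -2.0. It was the highest TA pre-graft library for 4 of 9 ER members (44.4%) and for 8 of 20 unfolded protein response genes (40.0%). It was also highest for 5 of 11 genes of the heat-inducible list (45.5%), 2 of 10 mitochondrial members (20%) and 26.6% of all detected genes.

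Of the HSP70 family, *Hspa13* stood high at 5.20 in the EOM graft of mouse 2 and low at -0.88 in the TA graft of mouse 6 of Experiment 2, where it had 13 reads. *Hspa1b* stood low at -4.46 in the TA graft of mouse 5 of Experiment 2, with 1 read. *Hspb2* stood low at -5.32 in the EOM pre-graft library of mouse 4 of Experiment 1, also with 1 read, and *Hspb7* stood high at -3.07 in that of mouse 5 of Experiment 2, with 8 reads. *Hspe1* was at 1.17 in the EOM pre-graft library of mouse 2 of Experiment 2, and *Hsp90ab1* at 6.54 in the TA graft of mouse 3 of Experiment 1. *Dnajb1* was at 5.57 in the EOM graft of mouse 3 of Experiment 2.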

How the results depend on the processing

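Of the values of 19 named genes and comparisons under the alternatives other than leaving out a library, 193 of 279 kept their direction and side of the threshold, 82 kept their direction and lost the threshold, and 4 reversed, all in EOM grafts on the deposited scale without centring: *Dnajb6* (-0.42), *Hspb1* (-0.52), *Hsph1* (-0.62) and *Dnajb9* (-0.34). Of TA against EOM pre-graft cells, 1 member was called, 0 in a fit over 4 groups, and 2 with DESeq2, with no filter on low values, with the donor as a replicate block and with a common floor, with 1 to 3 when a library was left out. In TA grafts 5 were called, 3 of them higher, against 1 higher and 6 lower scaled without mitochondrial genes and 1 and 5 centred on genes with a read in each library. There were 1 with the block, 2 in edgeR, 3 in Experiment 2 alone, 3 without grafts over 40% mitochondrial reads, 26 without centring (all lower), and 2 to 6 when a library was left out. In EOM grafts 3 were called, 2 of them higher, 0 with the block, 1 with the experiment as a covariate, 1 with a common floor, 1 with a stricter filter, 6 scaled without mitochondrial genes (1 higher and 5 lower), 8 centred on genes with a read in each library (1 and 7), 10 with no filter (7 and 3), 39 without centring (1 and 38), and 1 to 8 when a library was left out. The common floor and the exclusion of grafts over 40% mitochondrial reads were chosen after seeing the data. The counts between grafts and of the difference of changes were 0 under all alternatives. Beside the calls given above with their block values, the block ended those of *Dnajc6* (adjusted p = 0.0542) and *Hspb7* in EOM grafts and changed no other call. Over all genes, 1603 were called higher and 626 lower in EOM grafts, against 452 and 133 with the block, 582 and 7211 without centring and 1099 and 1694 scaled without mitochondrial genes, and 1086 and 687 in TA grafts, against 482 and 3901 without centring and 783 and 1475 scaled without mitochondrial genes. The cause of these changes was not tested. Depth limits the members with few reads: *Dnajc6*, *Hspb7*, *Hspb6* and *Hspb2* had libraries with 1 read or none.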
